A study of Mus musculus with 12 samples.

Results

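The anaphase-promoting complex and mitotic exit genes are 10 genes listed by symbol: Cdc20, Fzr1, Ube2c, Ube2s, Pttg1, Espl1, Fbxo5, Cdc27, Cdkn3 and G2e3. Each symbol matched 1 gene of the 54532 in the deposited table, and all 10 were among the 13012 genes tested. They were measured by RNA sequencing in MC38 cells, a mouse colorectal cancer cell line grown here in culture. The 4 groups of 3 libraries were untreated control cells, cells given 3 µM nintedanib, cells given 8 Gy of X-rays, and cells given both. The 3 treatments lasted 24 hours and the labels of the controls give no time. The study's design text describes the repeats as independent, and the labels name neither a vehicle for the controls nor the order of the agents in the combination. Nintedanib is a small-molecule inhibitor of receptor tyrosine kinases, among them the VEGF, PDGF and FGF receptors.

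The anaphase-promoting complex, or APC/C, is a large ubiquitin ligase that ends mitosis by marking securin and the mitotic cyclins for destruction by the proteasome. It works with an activator, Cdc20 in early mitosis and Fzr1 (Cdh1) from late mitosis through G1, and it takes ubiquitin from the conjugating enzymes Ube2c and Ube2s. Fbxo5 (Emi1) holds the complex inactive through S and G2 phase, and loss of securin, encoded by Pttg1, frees the protease separase, encoded by Espl1, to cut cohesin. Most of these genes are transcribed in G2 and mitosis. Ionizing radiation damages DNA and can hold cells in G2 through the DNA damage checkpoint.

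Promoters of genes transcribed in G2 and mitosis often hold a CHR element, TTTGAA, near the start site, together with CCAAT boxes. The stretches below are shown so that all 6 members called higher after radiation can be read beside the core subunit gene Cdc27, which was not called there. Cdc27 is not a flat gene: its log2 fold change was 0.31 (limma, adjusted p = 0.0660), close to that of Espl1 (0.33, adjusted p = 0.0331). TTTGAA is in 4 of the 6 (Cdc20, Ube2c, Espl1, Cdkn3) and is not in the windows of Fzr1, G2e3 or Cdc27. Each runs 5′ to 3′ on the gene's strand from 150 to 2 bases before the RefSeq start, and capitals mark TTTGAA and CCAAT or their reverse complements TTCAAA and ATTGG. The sequences come from RefSeq on GRCm38.p6: Cdc20 at chr4:118437345-118437493 (minus strand), Ube2c at chr2:164769779-164769927 (plus), Espl1 at chr15:102296143-102296291 (plus), Cdkn3 at chr14:46760391-46760539 (plus), Fzr1 at chr10:81378372-81378520 (minus), G2e3 at chr12:51348080-51348228 (plus) and Cdc27 at chr11:104550622-104550770 (minus).
Cdc20: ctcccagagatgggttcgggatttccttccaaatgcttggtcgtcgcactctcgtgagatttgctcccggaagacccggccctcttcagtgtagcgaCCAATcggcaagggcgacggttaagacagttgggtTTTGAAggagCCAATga
Ube2c: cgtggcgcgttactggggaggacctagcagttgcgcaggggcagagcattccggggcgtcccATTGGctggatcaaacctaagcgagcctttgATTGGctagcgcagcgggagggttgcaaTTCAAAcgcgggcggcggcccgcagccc
Espl1: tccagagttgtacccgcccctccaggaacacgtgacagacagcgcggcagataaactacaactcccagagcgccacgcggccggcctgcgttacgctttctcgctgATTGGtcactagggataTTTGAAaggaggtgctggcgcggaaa
Cdkn3: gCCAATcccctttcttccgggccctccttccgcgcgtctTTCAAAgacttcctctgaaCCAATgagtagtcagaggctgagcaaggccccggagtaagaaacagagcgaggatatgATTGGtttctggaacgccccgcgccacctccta
Fzr1: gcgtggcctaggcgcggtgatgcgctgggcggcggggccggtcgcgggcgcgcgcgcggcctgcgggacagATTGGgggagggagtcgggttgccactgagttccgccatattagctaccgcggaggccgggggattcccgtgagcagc
G2e3: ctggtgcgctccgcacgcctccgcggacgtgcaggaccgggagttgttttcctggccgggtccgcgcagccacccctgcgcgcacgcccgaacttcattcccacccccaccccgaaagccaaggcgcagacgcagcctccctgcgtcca
Cdc27: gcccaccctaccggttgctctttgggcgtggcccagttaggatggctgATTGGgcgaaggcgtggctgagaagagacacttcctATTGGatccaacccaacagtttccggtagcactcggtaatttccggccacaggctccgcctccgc

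All 10 members had a promoter of 300 bases (250 before and 50 after the start) in the RefSeq table, and both strands were searched. TTTGAA occurred in 5 of them, against 17.89% of all 32851 promoters. In Cdc20 it lay at position -18, in Espl1 at -27, in Ube2c at -29 on the reverse strand, in Cdkn3 at -111 on the reverse strand, and in Fbxo5 at +4 on the reverse strand, after the start. The related hexamer TTTAAA occurred in 1 member promoter, that of Fbxo5, and in 13.16% of all promoters. CCAAT occurred in 7 member promoters and in 37.41% of all; the 3 without it were Ube2s, Pttg1 and G2e3. The same 5 promoters held both TTTGAA and CCAAT, a pair found in 6.95% of all. Of the E2F-type motifs searched, TTCCCGC (4.6% of all promoters) and TTGGCGC (2.45%) were in 0 member promoters. Fbxo5, not called after radiation, has TTTGAA and 3 CCAAT boxes, and G2e3, which rose, has neither motif in this window.

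Each library held 16103528 to 18196615 recovered fragments, and each member rested on at least 320 fragments in every library. The mitochondrial share was highest in library 3 of the nintedanib group (2.12% of fragments) and lay between 1.23% and 1.64% in the other 11. The depth implied by the deposited FPKM was 0.970 to 0.982 of the recovered fragments in the control libraries. In the treated libraries it was 1.001 to 1.03, so this scaling followed the groups. Rescaling to a common sum raised the share of called genes that were higher in each comparison with control. It went from 44.8% to 69.7% after radiation, from 47.2% to 60.0% under nintedanib, and from 47.1% to 55.5% in the combination. Rescaled by fragment totals, the share was 59.9% after radiation, 55.8% under nintedanib and 55.6% in the combination. Epcam, an epithelial marker, was listed at 0 in all 12 libraries, while the mesenchymal gene Vim averaged 533 to 579 FPKM by group. The leukocyte gene Cd3e was listed at 0 and Ptprc reached at most 0.0292 FPKM. The summed leukocyte list was 3.86 to 4.79 FPKM in control, 14.7 to 15.1 with nintedanib, 4.95 to 5.84 after radiation and 17.4 to 20.1 in the combination. Only 1 of its 7 genes, Cd68, a lysosomal membrane protein, was at 1 FPKM or more in all 12 libraries (means 4.003, 14.02, 4.76 and 17.7). The epithelial list of 8 genes summed to 4.92 to 5.82, 6.45 to 9.50, 6.80 to 7.16 and 11.3 to 13.7 in the same order. Only 1 of the 8, Cdh1, was at 1 FPKM or more in all 12 libraries (means 4.49, 5.32, 5.69 and 8.26). Krt19 averaged 0.842, 2.43, 1.09 and 3.58. The endothelial list of 5 stayed at or below 2.40 in every library, and the mesenchymal list of 7 at 701 to 976. Of those 7, 6 were at 1 FPKM or more in all 12 libraries, and Thy1 reached at most 0.0944. Vim made up most of the mesenchymal sum, which therefore hides the other genes. Col1a2 averaged 59.5, 115, 63.8 and 103 FPKM in control, nintedanib, radiation and combination, and Pdgfrb 13.7, 21.02, 12.4 and 17.5. S100a4 ran from 5.05 to 203 between libraries. With nintedanib alone, 2 of the 6 mesenchymal genes tested were called higher and 0 lower. The part of these markers in the member results was not tested.

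After radiation, 6 of the 10 members rose and 0 fell: Cdkn3, G2e3, Ube2c, Cdc20, Fzr1 and Espl1 (limma, adjusted p under 0.05 over all genes tested). Mean FPKM was 2.55-fold higher for Cdkn3, 2.37-fold for G2e3, 1.96-fold for Ube2c and 1.68-fold for Cdc20. Over all genes tested, 8.04% were called higher and 9.9% lower in this comparison. The members' median log2 fold change was 0.40, against -0.04 for all genes. The members were chosen with earlier results of these data known, so setting them beside all genes is descriptive, here and below. For 8 members every irradiated library lay above every control library, a pattern held by 17.4% of all genes. The count of called members was 5 to 7 over the 20 alternative settings. In bulk RNA, a larger share of cells in G2 or mitosis and more RNA per such cell cannot be told apart.

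With nintedanib alone, 3 members fell (Fbxo5, Ube2s, Cdc27) and 1 rose (Cdkn3), where 22% of all genes were called lower and 19.7% higher. The fall of Fbxo5, to 0.566 of the control mean, was the largest of the 10, and its call held under all 20 alternatives. The calls of Ube2s, Cdc27 and Cdkn3 did not: the count was 1 without the filter on low values, with only the 2 groups in the fit, or without control library 3. It was 2 without control library 1 or 2 or nintedanib library 2 or 3. The members' median was -0.14, against -0.02 for all genes. Groups did not overlap for 3 members in the lower direction (26.5% of all genes) and for 1, Pttg1, in the higher (24.5%). With the libraries rescaled to a common sum, 2 members were called higher and 2 lower.

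In the combination 6 members were above control (Cdkn3, Ube2c, G2e3, Cdc20, Pttg1 and Fzr1) and 1, Fbxo5, was below, where 22.3% of all genes were called higher and 25% lower. The median was 0.37 for the members and -0.03 for all genes. Those 6 members had no overlap with control in the higher direction (26.7% of all genes), and Fbxo5 had none in the lower (30.1%). Against radiation alone, the combination was lower for 3 members, Fbxo5, Cdc27 and Espl1, and higher for 0 (17.3% and 17.2% of all genes). The members' median there was -0.17, against -0.01. Groups did not overlap for 4 members in the lower direction (24.1% of all genes) and for 0 in the higher (23.3%). Without combination library 1 the count of 3 called members rose to 5, with G2e3 lower and Pttg1 higher. Against nintedanib alone, the combination was higher for 5 members, Ube2c, Cdc20, Cdkn3, Ube2s and G2e3, and lower for 0 (3.17% and 2.37% of all genes). The median was 0.47, against -0.01. For 6 members the groups did not overlap in the higher direction (10.4% of all genes), and for 0 in the lower (11.8%). The count of 5 called members was 3 without nintedanib library 2 and 0 with only those groups in the fit. In that last fit 43 genes of the whole table were called in place of 722. These comparisons share libraries, so their counts are not independent of one another.

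**Figure D1:**
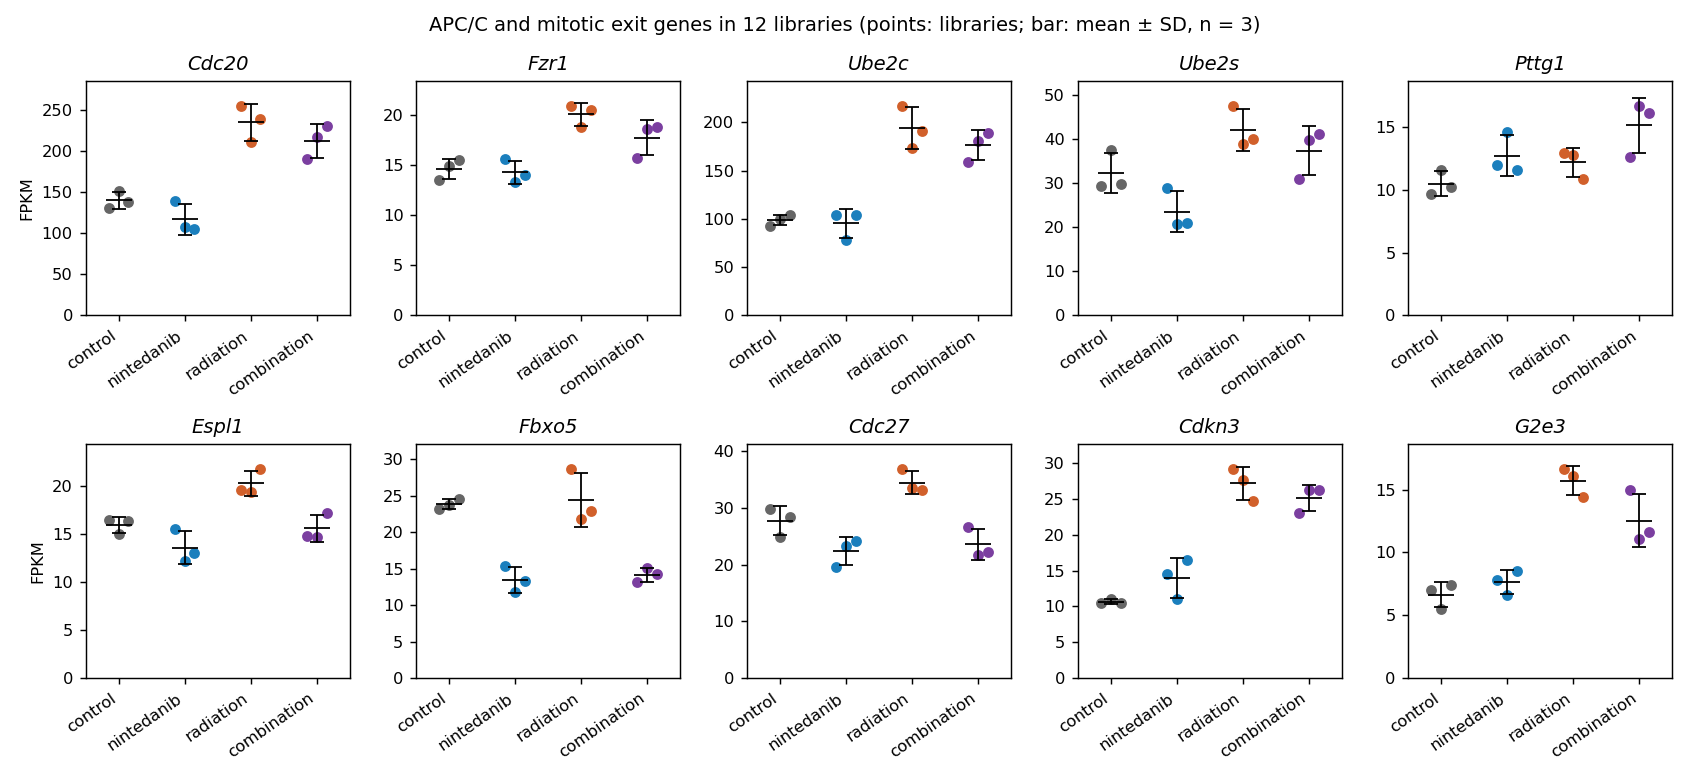
FPKM of each of the 10 members in the 12 libraries, by group; points are libraries and bars the mean ± SD (n = 3), with each vertical axis starting at 0. Cdkn3 and G2e3 sit higher in every irradiated library, with or without nintedanib, and Fbxo5 sits lower in every library with nintedanib.

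FPKM are fragments scaled to library size and to the length of the gene model, here all of its annotated exons merged. That length can exceed the transcript in use, so the order of levels between genes is approximate. Cdc20 was the most abundant member in all 4 groups (140 ± 10.5 FPKM in control, SD, n = 3), then Ube2c (98.7 ± 5.54) and Ube2s (32.3 ± 4.58). Cdc27 followed at 27.8 ± 2.54 and Fbxo5 at 23.9 ± 0.686. Ube2s and Cdc27 overlapped in control, and so did Fzr1 (14.7 ± 1.02) and Espl1 (16.0 ± 0.840). Cdkn3 (10.6 ± 0.366) and Pttg1 (10.5 ± 0.989) overlapped too, and G2e3 was lowest at 6.63 ± 0.997. Fbxo5 moved from the fifth place in control to the ninth in the combination, while Cdkn3 moved from the eighth to the fourth.

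Cdc20, the mitotic activator of the APC/C, lies at chr4:118432901-118437352 (all gene positions are on GRCm38). It stood at 131, 151 and 139 FPKM in the control libraries and at 255, 211 and 240 after radiation. With nintedanib alone it was 139, 108 and 105, and in the combination 191, 218 and 231. Every irradiated library, with or without the drug, exceeded every library without radiation. The log2 fold change was 0.74 ± 0.121 (SE) after radiation (adjusted p = 0.00266) and 0.60 in the combination against control (adjusted p = 0.00188). Nintedanib alone gave -0.26 (95% interval -0.53 to 0.003, adjusted p = 0.104), and without nintedanib library 1 this became a call (adjusted p = 0.0152). Within the drug-treated cells radiation gave 0.86 (adjusted p = 0.00329, and 0.0567 with only those groups in the fit). The exons of Cdc20 share 53 bases with Elovl1 on the other strand, and the strand setting of the counting is not given in the sources used here. Elovl1 averaged 30.8, 35.6, 19.4 and 26.7 FPKM in control, nintedanib, radiation and combination.

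Fzr1, the activator that takes over at mitotic exit and keeps the APC/C on in G1, lies at chr10:81366222-81378516. Control libraries were at 13.5, 14.96 and 15.5 FPKM and irradiated libraries at 20.9, 18.8 and 20.5, with no overlap. Nintedanib alone gave 15.6, 13.3 and 14.1, inside and around the control range, and the combination gave 15.8, 18.7 and 18.8. The log2 fold change after radiation was 0.43 ± 0.0869 (adjusted p = 0.00755), called under all 20 alternatives. In the combination it was 0.26 (adjusted p = 0.0302), and this call was lost without control library 1 (0.116), control library 2 (0.0530), or combination library 2 (0.0994) or 3 (0.103). It was also lost without the filter on low values (0.0552) and with only those groups in the fit (0.0521). With nintedanib alone the interval of the log2 difference was -0.22 to 0.16, and its sign turned from -0.03 to 0.06 on rescaling to a common sum. Mfsd12 shares 4 exonic bases with Fzr1 on the other strand and averaged 3.45, 7.005, 3.08 and 7.21 FPKM in control, nintedanib, radiation and combination.

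Ube2c (chr2:164769898-164778822) is the conjugating enzyme that starts ubiquitin chains on APC/C substrates. Its values were 92.7, 99.9 and 104 FPKM in control and 217, 174 and 190 after radiation. They were 104, 77.5 and 104 with nintedanib and 159, 181 and 189 in the combination. No irradiated library came down to the level of any library without radiation. The log2 fold change was 0.96 ± 0.124 after radiation (adjusted p = 0.000689) and 0.83 in the combination (adjusted p = 0.000254). Within the drug-treated cells it was 0.89 (adjusted p = 0.00316, and 0.0564 with only those groups in the fit). For nintedanib alone the interval was -0.34 to 0.21 around -0.06, which became 0.03 on rescaling to a common sum. Tnnc2, whose exons overlap 592 bases of Ube2c on the other strand, averaged at most 0.0937 FPKM in any group, and a Ube2c pseudogene stood at 0.754 to 2.65.

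Ube2s (chr7:4794546-4812590) extends those chains, and it was lower with nintedanib alone. Control libraries were at 29.4, 37.5 and 29.9 FPKM and nintedanib libraries at 28.95, 20.8 and 21.02, which did not overlap by a margin of under 1 FPKM. Radiation gave 47.5, 38.9 and 39.97, and the combination 30.996, 39.9 and 41.2. The log2 fold change with nintedanib was -0.44 ± 0.153 (adjusted p = 0.0360). That call was lost without control library 2 (0.136) or 3 (0.0524) or nintedanib library 2 (0.125) or 3 (0.110). It was also lost by fragment totals (0.0520), without the filter on low values (0.0938) and with the replicate block (0.0626). A fit with only those groups lost it too (0.0606). After radiation the log2 fold change was 0.38 (95% interval 0.04 to 0.71, adjusted p = 0.112). In irradiated cells the drug gave -0.17 (interval -0.51 to 0.16, adjusted p = 0.415), and those groups overlapped. Combination against nintedanib gave 0.65 (adjusted p = 0.0327), lost without nintedanib library 2 (0.105) or 3 (0.0980) or combination library 2 (0.118) or 3 (0.104). It was also lost without the filter on low values (0.0812), with the replicate block (0.0708) and with only those groups in the fit (0.133). Ube2s shares 183 exonic bases with the ribosomal protein gene Rpl28 on the other strand. Rpl28 averaged 254 FPKM in control, 151 with nintedanib, 228 after radiation and 231 in the combination, so the level of Ube2s is uncertain where the counting ignored strand.

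Fbxo5 (chr10:5799160-5805600), the inhibitor of the complex, was lower with the drug in cells with and without radiation. It stood at 23.2, 23.7 and 24.6 FPKM in control and at 15.4, 11.8 and 13.3 with nintedanib. After radiation it was 28.7, 21.8 and 22.9, and in the combination 13.2, 15.1 and 14.3. All 6 libraries with the drug were below all 6 without it. The log2 fold change was -0.79 ± 0.110 with nintedanib against control (adjusted p = 0.000189). In irradiated cells nintedanib gave -0.74 ± 0.110 (adjusted p = 0.000422), and the combination against control gave -0.71 (adjusted p = 0.000291). These 3 calls held under all 20 alternatives each. Radiation gave 0.03 against control (interval -0.22 to 0.27, adjusted p = 0.901), and -0.09 without radiation library 1. In drug-treated cells it gave 0.07 (interval -0.17 to 0.31). Cd68 and the summed leukocyte list were also separated by the drug, upward, in the values given above.

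Pttg1 (chr11:43420250-43426251) encodes securin, the APC/C substrate that inhibits separase until anaphase. Its levels were 9.64, 11.6 and 10.2 FPKM in control, 12.001, 14.6 and 11.6 with nintedanib, 12.9, 12.7 and 10.8 after radiation, and 12.6, 16.6 and 16.1 in the combination. The combination lay wholly above control, whereas radiation overlapped it, and the lowest nintedanib and highest control libraries were equal at the digits printed. Pttg1 was called only in the combination against control (0.49 ± 0.119, adjusted p = 0.00583), under all 20 alternatives as well. Each agent alone gave a smaller value, 0.26 with nintedanib (interval -0.01 to 0.52) and 0.20 after radiation (interval -0.06 to 0.46). Nintedanib alone became a call on rescaling to a common sum (adjusted p = 0.0286). The interaction was 0.03 (interval -0.34 to 0.40), so a difference between the combination and the sum of the agents was not shown.

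Espl1 (chr15:102296266-102324357), encoding separase, was at 16.5, 15.003 and 16.4 FPKM in control and at 19.7, 19.4 and 21.8 after radiation. With nintedanib it was 15.5, 12.3 and 13.01, and in the combination 14.9, 14.8 and 17.3, so the combination overlapped control and lay below radiation. Against radiation the combination fell by 0.36 on the log2 scale (SE 0.0929, adjusted p = 0.0114), a call kept under all 20 alternatives. The rise after radiation, 0.33 (adjusted p = 0.0331), was lost without any 1 of the 6 control and radiation libraries. Those adjusted p-values ran from 0.0616 without control library 1 to 0.112 without control library 2. Between, they were 0.0743 without control library 3, and 0.0630, 0.0675 and 0.108 without radiation library 1, 2 and 3. The call after radiation was also lost without the filter on low values (0.0677). With nintedanib alone the value was -0.22 (interval -0.43 to -0.02, adjusted p = 0.0764), and 0.0144 without nintedanib library 1. The combination against control was -0.03 (interval -0.24 to 0.17) and turned to 0.03 under either rescaling.

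Cdc27 (APC3, chr11:104502745-104550620) is a core subunit that binds the activators. It was at 29.9, 24.98 and 28.5 FPKM in control, 19.6, 23.4 and 24.2 with nintedanib, 36.9, 33.5 and 33.1 after radiation, and 26.7, 21.8 and 22.3 in the combination. Nintedanib libraries were all below control and irradiated libraries all above it. Nintedanib in irradiated cells lowered it by 0.53 on the log2 scale (SE 0.104, adjusted p = 0.00239), under all 20 alternatives too. In cells without radiation the drug gave -0.30 (adjusted p = 0.0369). That call was lost without control library 1 (0.125) or 3 (0.102), or nintedanib library 1 (0.128) or 2 (0.0524). It was also lost on rescaling to a common sum (0.249) or by fragment totals (0.101) and without the filter on low values (0.0818). The replicate block (0.0534) and a fit with only those groups (0.0651) lost it too. The value after radiation was 0.31 (interval 0.08 to 0.53, adjusted p = 0.0660), called in 5 of the alternatives. Among them were the fits without nintedanib library 1 (0.0444) and combination library 1 (0.0467). Combination against control was -0.23 (adjusted p = 0.0936), and 0.0310 without combination library 1.

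Cdkn3 (chr14:46760541-46771669), a phosphatase that removes the activating phosphate from cyclin-dependent kinases, had the largest rise after radiation of the 10. It went from 10.4, 11.1 and 10.5 FPKM in control to 29.2, 27.6 and 24.7 after radiation. With nintedanib it was 14.5, 11.001 and 16.5, of which the lowest lay inside the control range, and in the combination 23.1, 26.2 and 26.2. Radiation gave 1.27 ± 0.120 (adjusted p = 0.000119) and the combination 1.17 (adjusted p = 1.80e-05). Nintedanib alone gave 0.35 (adjusted p = 0.0370). This was lost without control library 1 (0.0912), 2 (0.0607) or 3 (0.0928), or nintedanib library 1 (0.0925) or 3 (0.134). It was also lost without the filter on low values (0.0894), with the replicate block (0.0611) and with only those groups in the fit (0.0871). In drug-treated cells radiation gave 0.82 (adjusted p = 0.00395, and 0.0757 with only those groups in the fit).

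G2e3 (chr12:51348061-51376986) encodes a ubiquitin ligase named for its expression in G2 phase. Control libraries held 7.01, 5.504 and 7.39 FPKM and nintedanib libraries 7.82, 6.58 and 8.51, which overlapped. Irradiated libraries held 16.7, 16.1 and 14.4 and combination libraries 14.95, 11.1 and 11.6, all above every library without radiation. The log2 fold change was 1.14 ± 0.130 after radiation (adjusted p = 0.000351) and 0.82 in the combination (adjusted p = 0.000345). In drug-treated cells radiation gave 0.64 (adjusted p = 0.0177), lost without nintedanib library 2 (0.0623), on rescaling to a common sum (0.0511) and with only those groups in the fit (0.102). The combination against radiation was -0.31 (interval -0.60 to -0.03, adjusted p = 0.0851), and 0.0220 without combination library 1.

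**Figure D2:**
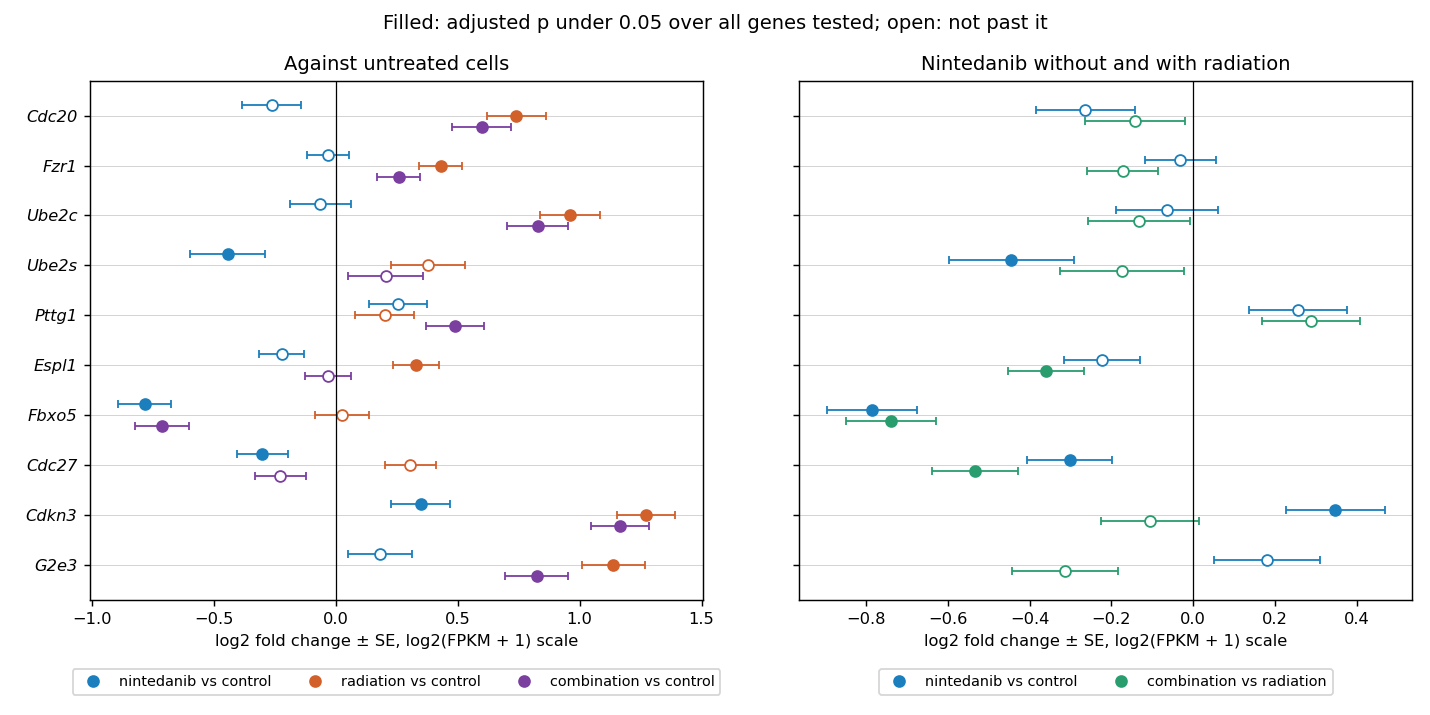
Log2 fold change ± SE of each member on the log2(FPKM + 1) scale, on the left for each treatment against control and on the right for nintedanib without and with radiation; filled points passed adjusted p under 0.05 over all genes tested. Fbxo5 is at -0.79 and -0.74 in the right panel, and Cdkn3 is the farthest to the right in the left panel at 1.27.

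Whether the drug acted differently in irradiated cells was asked by the interaction, the drug's log2 difference with radiation minus that without. It was called for 0 of 10 members by limma, where 0.00769% of all genes were called higher and 0% lower. An unadjusted p under 0.05 was given to Cdkn3 (-0.45, SE 0.170, adjusted p = 0.317), to G2e3 (-0.49, SE 0.183, adjusted p = 0.315), and to 1685 of all genes. No member was called under any of the 19 alternatives run for the interaction. Cdkn3 was 0.35 higher with the drug alone and -0.11 with the drug in irradiated cells, and G2e3 was 0.18 and -0.31. For Fbxo5 the interaction was 0.05 with an interval of -0.30 to 0.39. Rescaling to a common sum moved the median interaction of all genes from 0.01 to -0.10. Relative to that median, Cdkn3 stood at -0.47 as deposited and -0.48 rescaled, and G2e3 at -0.51 under both.

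The balance between the RNA levels of members was followed as ratios of FPKM within each library. These data hold no protein levels. Fbxo5 to Cdc20, inhibitor to mitotic activator, was 0.178, 0.157 and 0.177 in control, 0.110, 0.109 and 0.127 with nintedanib, and 0.112, 0.103 and 0.0955 after radiation. It was 0.0691, 0.0693 and 0.0618 in the combination. The combination was therefore lowest in every library and the controls highest. The means were 0.171 ± 0.0120, 0.116 ± 0.0102, 0.104 ± 0.00848 and 0.0667 ± 0.00430 (SD, n = 3). Fbxo5 to Fzr1, inhibitor to the G1 activator, was 1.63 ± 0.0754 in control, 0.939 ± 0.0515 with nintedanib, 1.21 ± 0.137 after radiation and 0.800 ± 0.0393 in the combination. For both ratios, groups did not overlap in any of the 5 pairwise comparisons. The exact two-sided permutation test gave p = 0.1 each time, the smallest that 3 libraries against 3 allow, so no ratio could pass 0.05.

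Cdc20 to Fzr1 was 9.57 ± 0.594 in control, 8.16 ± 0.735 with nintedanib, 11.7 ± 0.491 after radiation and 12.003 ± 0.326 in the combination, of which the last pair overlapped. Ube2c to Ube2s was 3.09 ± 0.405, 4.09 ± 0.749, 4.596 ± 0.153 and 4.75 ± 0.327 in the same order. Every treated library was above control for that ratio, and the uncertainty from Rpl28 applies to it. Securin to separase, Pttg1 to Espl1, was 0.659 ± 0.0988, 0.950 ± 0.215, 0.603 ± 0.0923 and 0.971 ± 0.143. The groups with nintedanib lay above those without it, at 0.773 or more against 0.770 or less. That margin is smaller than the spread within any group.

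**Figure D3:**
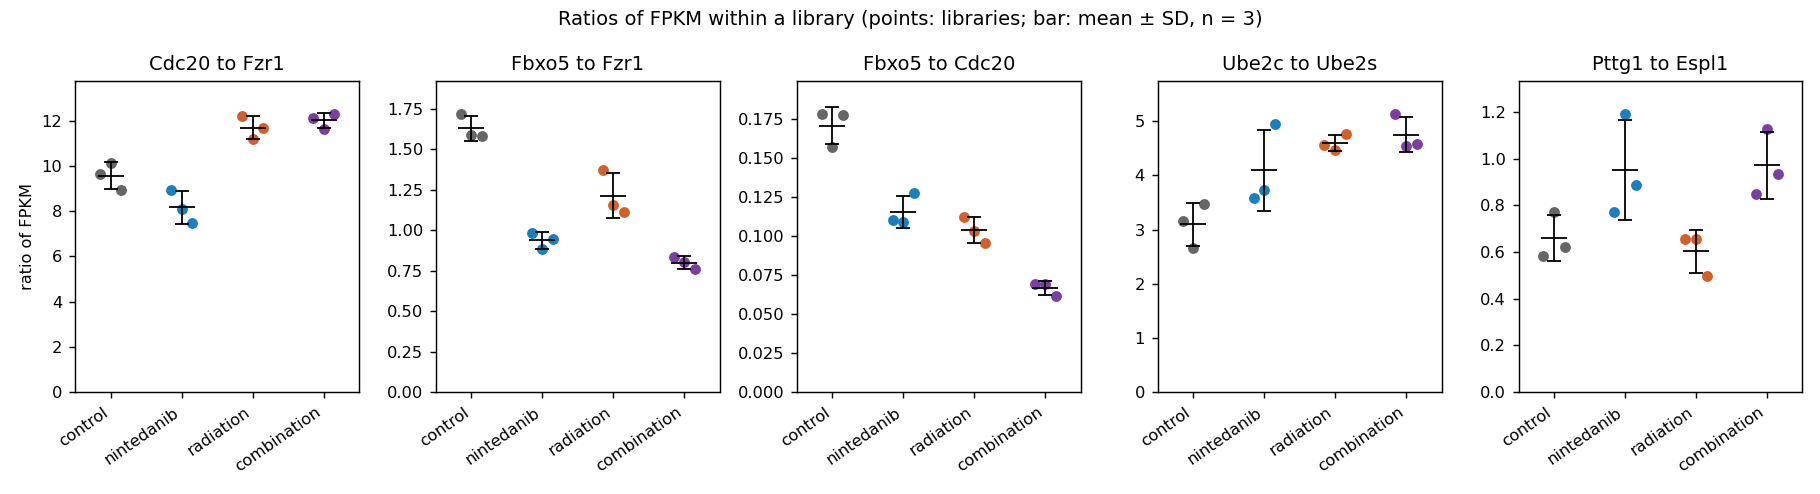
Ratios of FPKM between members within each library, by group; points are libraries, bars the mean ± SD (n = 3), and vertical axes start at 0. Mean Fbxo5 to Cdc20 is 0.171 in control and 0.0667 in the combination, with both single treatments between.

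Other genes of the pathway were followed in lists drawn up by role, with earlier results of these data known. Some genes are in more than 1 list, among them Tk1, Cdca5, Plk1, Foxm1 and Anapc15. The counts of different lists are therefore not independent. Over all genes tested, 8.04% were called higher and 9.9% lower after radiation, 19.7% and 22% with nintedanib, and 17.2% and 17.3% with nintedanib in irradiated cells. The 14 APC/C subunits, Cdc27 included, had 0 called after radiation by limma and 2 at an unadjusted p under 0.05. Their median was 0.01. Without nintedanib library 1 the count was 2, and without nintedanib library 3, radiation library 3 or combination library 1 it was 1. It was also 2 with protein-coding genes only or only those groups in the fit. With nintedanib 1 subunit rose, Anapc2 (0.30), the cullin of the complex, and 4 fell, led by Anapc16 (-0.44) and with Cdc27 among them, where 19.7% of all genes were called higher and 22% lower. The count of 5 was 2 without control library 1 or nintedanib library 2, and 3 without control library 3 or nintedanib library 1. It was also 2 by fragment totals or with only those groups in the fit. In irradiated cells nintedanib raised Anapc2 (0.32) and Anapc13 (0.50) and lowered 2, Cdc27 among them. The call of Anapc13 was lost without radiation library 2 (0.0527) or combination library 3 (0.0540), and the count of 4 was 2 without the former. Anapc2 averaged 34.6 FPKM in control, 42.6 with nintedanib, 35.7 after radiation and 44.9 in the combination.

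Of 24 APC/C substrates, 18 rose after radiation and 1, Tk1 (thymidine kinase), was lower, for a median of 0.49. The fall of Tk1 (-0.32) was lost without any 1 of the control or radiation libraries or combination library 2 (adjusted p up to 0.139), and under both rescalings. The smallest adjusted p-values belonged to Ccnb2 (cyclin B2, 1.17), Nusap1 (1.14), Dlgap5 (1.08) and Tpx2 (0.85), which act on the spindle or on mitotic entry. The total of 19 called was 14 to 20 when single libraries were left out. With nintedanib 0 rose and 7 fell, among them Cdca5 (sororin, -0.51) and Tk1 (-0.53), where 22% of all genes were called lower. That 7 dropped to 3 without any 1 of the control libraries and to 4 without nintedanib library 3, and it was 3 without the filter on low values. In irradiated cells the drug lowered 9 and raised 0, with a median of -0.23, led by Tk1 (-0.56), Foxm1 (-0.40) and Anln (-0.45). In the combination against control 13 were higher and 2 lower (median 0.39).

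The mitotic checkpoint holds Cdc20 inactive until chromosomes are attached. Of its 10 listed genes 6 rose and 0 fell after radiation (median 0.42), among them Bub1b (0.67), Ttk (0.64) and Bub3 (0.59). Trip13, the ATPase that takes the checkpoint complex apart, was not among them. It averaged 14.5 FPKM in control, 7.82 with nintedanib, 14.2 after radiation and 7.86 in the combination. Nintedanib lowered it by 0.82 on the log2 scale (adjusted p = 6.12e-05), and by 0.79 in irradiated cells (adjusted p = 0.000133). With nintedanib alone 2 checkpoint genes of 10 fell, Trip13 and Anapc15 (-0.29), a share near the 22% of all genes called lower. That count was 1 without any 1 of the 3 control libraries, nintedanib library 2 or any 1 of the 3 radiation libraries, and 4 without nintedanib library 1. It was also 1 under both rescalings.

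Of 16 genes for cohesin, the ring that separase cuts, and its regulators, 9 fell and 0 rose with nintedanib (median -0.24; 22% of all genes were called lower), and 9 fell in irradiated cells (median -0.34). Sgo1, a shugoshin that protects centromeric cohesin, was at -0.56 and -0.59 in those comparisons and Smc3, a ring subunit, at -0.29 and -0.37. Rescaling to a common sum left 3 called with nintedanib alone, and Smc3 was then not among them (adjusted p = 0.131). After radiation 4 rose and 1 fell. Among them Sgo2a was at 0.94, Sgo1 at 0.47 and Cdca5 at 0.38, and Stag1, an accessory cohesin subunit, at -0.57. In the combination Stag1 was at -0.89 against control.

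Of 13 tested genes in a list of exit phosphatases, their inhibitors and the Cdc25 phosphatases, 3 rose after radiation and 0 fell. They were Mastl (1.04), the kinase that restrains PP2A in mitosis, and the phosphatases Cdc25b (0.91) and Cdc25c (0.75), which activate Cdk1. With nintedanib 3 fell, a share near the 22% of all genes called lower, among them Ppp2r2a (-0.59), the PP2A-B55 regulatory subunit, and Ensa (-0.37), its inhibitor. Cdc25b rose (0.27, adjusted p = 0.0147, and 0.0523 with only those groups in the fit). Among 8 tested genes that act on Emi1 or in SCF ligases, Ccnf (0.62) and Plk1 (0.63) rose after radiation, Plk1 not without radiation library 1 (adjusted p = 0.0511). Fbxw11, a β-TrCP protein that targets Emi1, was at -0.23 with nintedanib and was the only one called there (adjusted p = 0.00827, and 0.243 on rescaling to a common sum). That count of 1 was 2 without nintedanib library 1, 3 without library 2, and 2 and 3 on rescaling to a common sum and by fragment totals. Of 9 tested ubiquitin and deubiquitinase genes, 3 fell with nintedanib and 0 rose, with Ubb, a ubiquitin precursor, at -0.63. That 3 was 1 on rescaling to a common sum, and 22% of all genes were called lower.

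The 13 E2F and FOXM1 regulators are transcription factors that act on many of these genes, and proteins that bind such factors, Rbl2 among them. With nintedanib 5 fell and 1 rose (22% and 19.7% of all genes), for a median of -0.20. E2f3 was at -0.51, E2f4 at -0.69, E2f2 at -0.55 and Rbl2 at 0.54. After radiation 5 rose and 0 fell, with E2f2 at 0.66. That 5 was 1 without control library 2 or radiation library 1 or 2, 2 without control library 3 or radiation library 3, and 8 without nintedanib library 1. In irradiated cells nintedanib lowered 8 and raised 0. Of 18 DNA replication genes 7 fell with nintedanib (22% of all genes), led by Tk1, Pola1 (-0.41) and Cdt1 (-0.74), and 4 without control library 3 or nintedanib library 2. After radiation 2 rose and 2 fell. That total of 4 was 12 with only those groups in the fit, 7 on rescaling to a common sum, 2 with the replicate block and 0 without the filter on low values. It was also 0 without control library 2 or 3 or any 1 of the radiation libraries, 1 without control library 1, 2 without combination library 2 and 8 without nintedanib library 1.

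**Figure D4:**
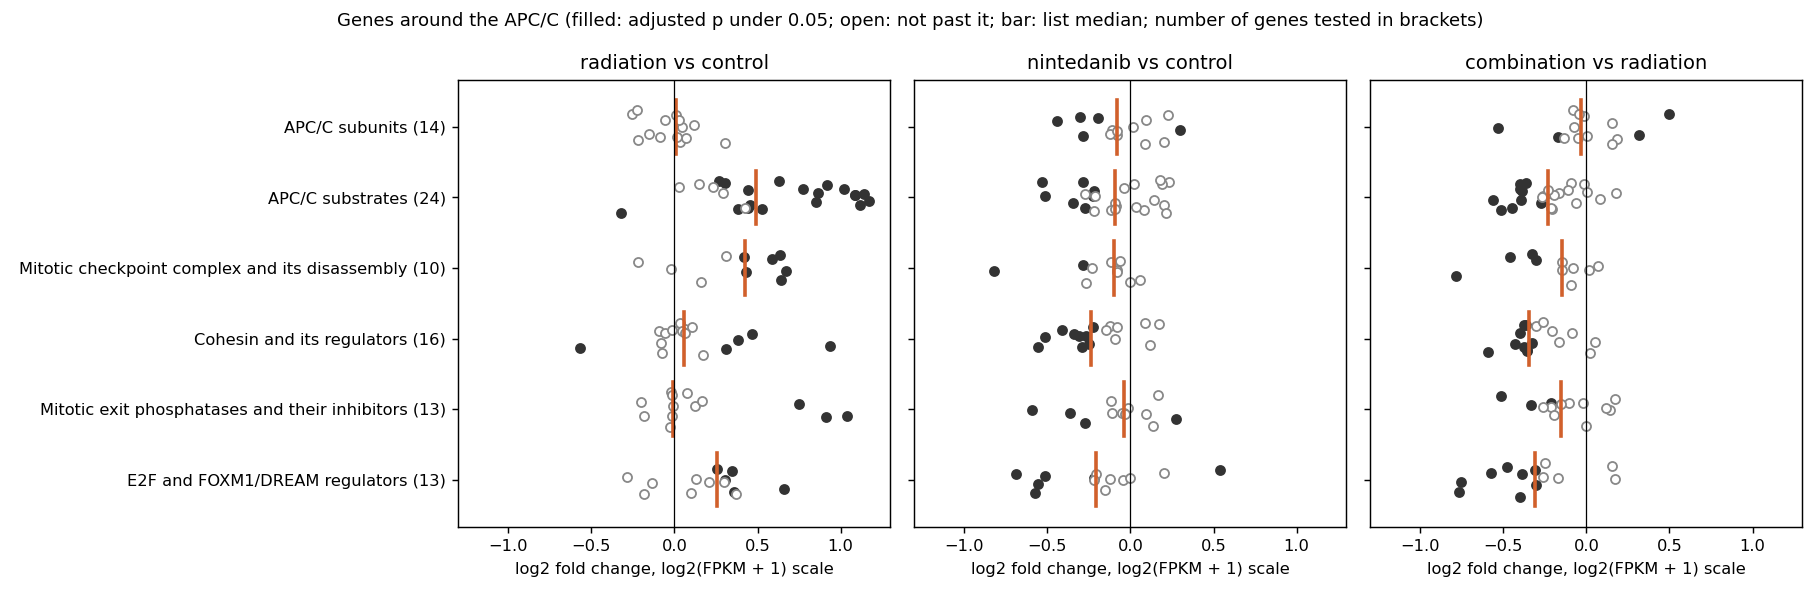
Log2 fold change of each tested gene in 6 pathway lists, in the radiation and nintedanib comparisons with control and in combination against radiation; filled points passed adjusted p under 0.05 over all genes tested and orange bars are list medians. After radiation 18 APC/C substrates are filled to the right of 0, and 0 subunits are filled.

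For each member the gene with the most similar profile was found among 7989 other tested genes with a mean of at least 5 FPKM, by Pearson correlation of log2(FPKM + 1) over the 12 libraries. These values describe the 4 treatment groups as much as the genes, since the libraries fall into groups. For Cdc20 it was Aurka, a mitotic kinase (r = 0.982), and for Ube2c it was Bub3, a checkpoint protein (r = 0.990). Cdkn3 was closest to Dlgap5 (r = 0.984), G2e3 to Hmmr (r = 0.988) and Ube2s to Pimreg (r = 0.968). Fbxo5 was closest to Lias, which makes lipoic acid (r = 0.988) and averaged 7.74, 4.67, 7.95 and 5.16 FPKM in control, nintedanib, radiation and combination. Espl1 was closest to Phf19 (r = 0.980), Cdc27 to Rnf111 (r = 0.969), Fzr1 to Fam110a (r = 0.943) and Pttg1 to Khk (r = 0.938).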

How the data were processed

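MC38 libraries were made with a SMARTER mRNA-seq kit, per the labels' protocols. The authors deposited FPKM for 54532 genes in 12 libraries. The submitters' processing notes name GRCm38 (mm10). Aligner, counter, annotation and strand setting: not given in the sources used here. Members and lists were chosen with earlier results of these data known. Genes with at least 1 FPKM in at least 3 libraries (13012) were tested as log2(FPKM + 1) with limma 3.58.1 (R 4.3.3; empirical Bayes with trend, two-sided). All 12 libraries entered 1 fit with 8 residual degrees of freedom. Benjamini-Hochberg adjustment covered all genes tested, with a threshold of 0.05. Fold changes on this scale understate the change of low genes. Fragment numbers were recovered from the steps in the deposited FPKM, within 0.01 of a whole number, and served only for depth, rescaling and comparing replicates. Replicate libraries differed by more than sampling noise (chi-square per gene 4.30 to 30.2), so none was merged. Genes named were all members, up to 4 per list with the smallest adjusted p, and the most correlated gene per member. Genes that share exonic bases with a member were named as well. Alternatives were a pseudocount of 0.1, a filter at 5 FPKM or none, 2 rescalings, protein-coding genes only, a replicate block, only the groups compared, and leaving out each library.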

Additional observations from a re-analysis of the deposited data

How the results depend on the processing

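Over 20 alternatives per pairwise comparison, and 19 for the interaction, the members' fold changes gave 1095 cases with the same direction and side of the threshold, 51 that lost a call, 13 that gained one and 31 of opposite sign. A planned fit with voom is not reported, since a count model is not used on FPKM here. The 4 members called with nintedanib became 1 without the filter on low values, 2 on rescaling by fragment totals, 1 with the replicate block and 1 with only the groups compared. The 5 called in combination against nintedanib became 0 with only the groups compared. Leaving out single libraries gave 1 to 4 members with nintedanib, 5 to 7 after radiation, 6 to 8 in the combination, 3 to 5 for combination against radiation and 3 to 6 for combination against nintedanib. Those fits hold fewer libraries, and an arm left with 2 was assumed to vary like the others. For the other settings the cause was not tested.

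The sign turned only for values that were not called. On a common sum, nintedanib gave 0.0581 for Fzr1 and 0.0320 for Ube2c, the combination 0.0306 for Espl1, and the interaction -0.0168 for Cdc20, -0.0871 for Fbxo5 and -0.0965 for Pttg1. By fragment totals, nintedanib gave 0.0255 for Fzr1, the combination 0.0333 for Espl1, and the interaction -0.00523 for Fbxo5 and -0.0163 for Pttg1. Leaving out single libraries, nintedanib ran from -0.0906 to 0.0151 for Fzr1 and from -0.134 to 0.0763 for Ube2c. Radiation ran from -0.0899 to 0.0990 for Fbxo5, and the combination from -0.101 to 0.00522 for Espl1. Combination against nintedanib ran from -0.0165 to 0.130 for Cdc27 and from -0.0162 to 0.162 for Fbxo5. The interaction ran from -0.0416 to 0.161 for Fbxo5, from -0.0430 to 0.149 for Pttg1 and from -0.208 to 0.0151 for Ube2c.

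No pairing of the libraries by replicate number was seen. Correlations of deviations between same-numbered libraries ran from -0.299 to 0.202, 3 of 18 were over 0.1, and 3 libraries correlated best with their own number. This check cannot show that same-numbered libraries were handled apart. With the replicate block, combination against nintedanib called 4 members, and 444 of all genes in place of 722; 43 were called with only the groups compared. Genes called after radiation, 2334 of all, ran from 1145 without radiation library 2 to 2784 with only the groups compared. The interaction called 1 gene of all, 12 without the filter on low values, and 0 to 5 without single libraries. With at least 320 fragments per member, the 3 libraries a group limit precision.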
